A study of Sus scrofa with 6 samples.

Results

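The transcription factors that give the lung its cell lineages were examined in whole lung tissue of piglets around birth. They were taken by gene symbol: NKX2-1, FOXA1, FOXA2, GATA6, SOX2, SOX9, FOXF1, TBX4, CEBPA and ETV5. Of these 10 genes, 6 were matched to an identifier among the 14579 mRNAs of the deposited table, and FOXA2, GATA6, SOX9, TBX4, CEBPA and ETV5 were therefore followed. NKX2-1, FOXA1, SOX2 and FOXF1 were matched to no row and were not analysed here. Since 4739 of the mRNAs carried no symbol, nothing can be said of the level of those 4 genes.

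Lung tissue came from 6 female crossbred piglets with a Tibetan pig as father and a Meishan pig as mother. The fetal group held 3 piglets from 3 sows, taken on the last day before birth, and the neonatal group 3 piglets from 3 other sows, taken 2 days after birth. Each piglet gave 1 Ribo-Zero library, so the samples are separate animals, named here Fetal1 to Fetal3 and Neonatal1 to Neonatal3. The comparison asks how the lineage factors differ between the liquid-filled lung and the lung that has breathed air for 2 days.

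The lung arises as a bud of the foregut, in which an inner epithelium and an outer mesenchyme grow against each other. Forkhead, GATA and SOX proteins in the epithelium open and occupy the regulatory DNA of airway and alveolar genes, while T-box and forkhead proteins in the mesenchyme govern the signals that make the epithelium branch. Late in gestation, several of the same factors, together with the leucine zipper protein CEBPA, drive the genes of pulmonary surfactant in alveolar type II cells. ETV5 belongs to the ETS family and carries the signal of fibroblast growth factors (FGF) in the growing tips and later in type II cells.

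Levels are given in FPKM, the authors' measure of fragments scaled to transcript length and to the mapped fragments of the library, and are therefore per length. Read counts were not used here, and the error of a value is the spread between the 3 piglets of a group. The median FPKM of an mRNA was between 4.99 and 6.11 in the 6 libraries. The labelled tissue showed in its markers, with SFTPC, the surfactant protein of alveolar type II cells, at 3171 FPKM or more in every library. In whole tissue, fewer cells of a type and less RNA per cell cannot be told apart. For the comparison of the groups, limma was fitted to log2(FPKM + 1) of all 14579 mRNAs, p values were adjusted after Benjamini and Hochberg over all of them, and the threshold was an adjusted p of 0.05. The median difference over all mRNAs, neonatal minus fetal, was 0.13 on this scale, -0.01 after median-of-ratios scaling of the libraries and -0.04 after quantile normalization, and small differences are to be read against this shift.

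TBX4, a T-box factor of the lung mesenchyme, had the highest mean level of the 6 factors in both groups, and SOX9, an HMG box factor of the distal epithelial tips and of cartilage, had the lowest. In the fetal group the mean FPKM ranked in the order TBX4 (16.5 ± 2.99), GATA6 (12.96 ± 1.83), ETV5 (8.45 ± 1.17), FOXA2 (7.79 ± 1.11), CEBPA (5.97 ± 3.76) and SOX9 (1.24 ± 0.345) (SD, n = 3). In the neonatal group it was TBX4 (27.0 ± 2.63), GATA6 (12.0 ± 0.375), ETV5 (8.74 ± 1.11), FOXA2 (8.42 ± 0.821), CEBPA (8.10 ± 2.90) and SOX9 (1.12 ± 0.458) (SD, n = 3). The order was thus the same before and after birth. ETV5 overlapped with FOXA2, and FOXA2 with CEBPA, in both groups. GATA6 stood clear of ETV5, and CEBPA of SOX9, in both, while TBX4 overlapped with GATA6 in the fetal group and stood clear of it in the neonatal group. Set against all mRNAs, the fetal mean of TBX4 was above that of 80.9% of them, that of GATA6 above 75.5% and that of SOX9 above 18.8%.

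**Figure D1:**
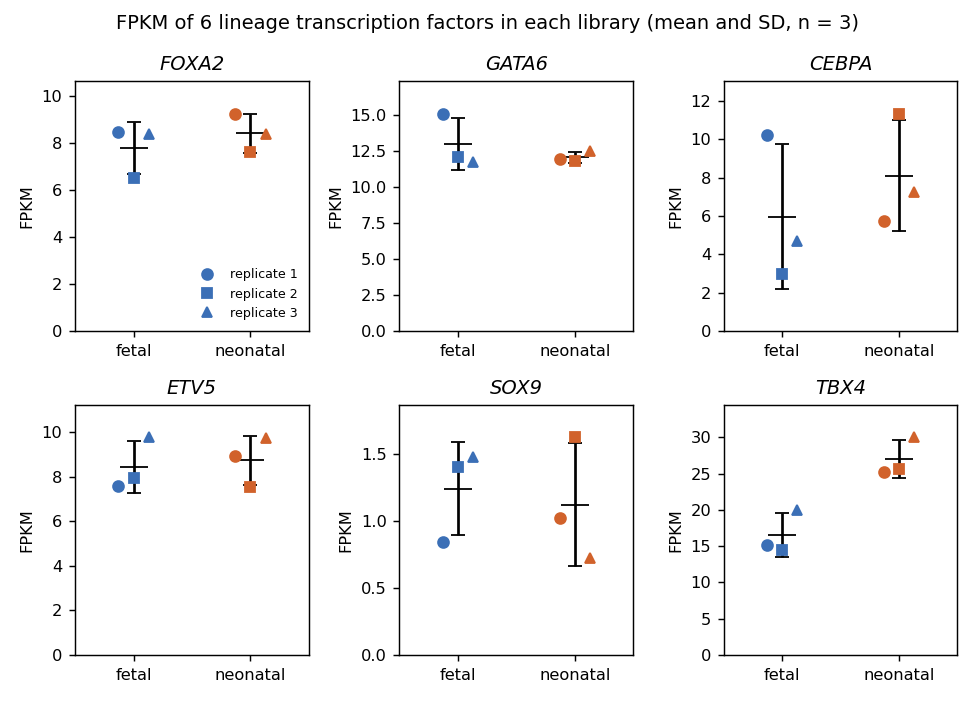
FPKM (linear axis from 0) of the 6 measured lineage factors in the 3 fetal and 3 neonatal libraries. Points are libraries, with a symbol for each replicate number, and black bars give the mean and SD (n = 3 per group). Only the neonatal values of TBX4, from 25.2 to 30.0, lie apart from its fetal values, from 14.5 to 20.0.

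None of the 6 factors was past the threshold in limma, where 6.87% of all mRNAs were, 5.41% with the neonatal and 1.45% with the fetal mean as the higher one. An unadjusted p under 0.05 was found for 1 of them, TBX4, and for 24.2% of all mRNAs. The groups did not overlap for 1 of the 6, again TBX4, in which the neonatal values were above. They did not overlap for 30.5% of all mRNAs, with the neonatal values above in 20.9% and the fetal values above in 9.64%. The median difference of the 6 was 0.07, beside 0.13 over all mRNAs. A p above the threshold does not show that the levels were alike, and the interval of each difference is given below.

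FOXA2, the forkhead factor of airway and alveolar epithelium, reached 8.48, 6.51 and 8.37 FPKM in the fetal libraries and 9.25, 7.60 and 8.40 FPKM in the neonatal libraries. The groups overlapped, with Fetal2 lowest and Neonatal1 highest, a factor of 1.42 apart. The difference was 0.10 on the log2(FPKM + 1) scale (standard error 0.18, limma adjusted p = 0.760), with a 95% interval from -0.32 to 0.53. After median-of-ratios scaling or quantile normalization it was -0.05 under each.

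GATA6 is a zinc finger factor of the distal epithelium that is also made in smooth muscle and other mesenchymal cells. Its levels were 15.1, 12.1 and 11.7 FPKM in the fetal group and 11.9, 11.8 and 12.5 FPKM in the neonatal group. Fetal1 alone stood above the other 5 libraries, which lay within 1 FPKM of each other. The difference was -0.09 (standard error 0.17, limma adjusted p = 0.777; 95% interval from -0.49 to 0.31), and 0.01 without Fetal1. Both scalings gave lower values, -0.25 with median-of-ratios factors and -0.28 with quantile normalization, with an adjusted p of 0.340 and 0.286.

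ETV5 stood at 7.60, 7.96 and 9.78 FPKM before birth and at 8.95, 7.54 and 9.74 FPKM after it. Its highest and lowest libraries, Fetal3 and Neonatal2, were a factor of 1.296 apart, and the ranges of the groups nearly coincided. The difference was 0.05 (standard error 0.19, limma adjusted p = 0.901; 95% interval from -0.39 to 0.48). With median-of-ratios scaling or quantile normalization it was -0.11.

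SOX9 had 0.841, 1.40 and 1.47 FPKM in the fetal libraries and 1.02, 1.62 and 0.722 FPKM in the neonatal libraries. Both the highest and the lowest value were neonatal, so the fetal values lay inside the neonatal range. The difference was -0.09 (standard error 0.24, limma adjusted p = 0.852; 95% interval from -0.66 to 0.48). At about 1 FPKM the added 1 compresses differences, and with a pseudocount of 0.1 the difference was -0.16 with a standard error of 0.43. SOX9 is also the master regulator of cartilage, which the walls of the larger airways hold. The largest differences of the cartilage list were those of SNORC (-1.21, limma adjusted p = 0.221) and COL2A1 (0.27, adjusted p = 0.667). COL2A1, the main collagen of cartilage, had 6.57, 14.5 and 18.0 FPKM in Fetal1 to Fetal3 and 15.6, 16.8 and 12.2 FPKM in Neonatal1 to Neonatal3. SNORC had 6.12, 1.02 and 0.771 FPKM in Fetal1 to Fetal3, so the cartilage genes did not share 1 order of the libraries. COL2A1, ACAN, COL9A1, COL11A2 and MATN1 were lowest in Fetal1 among the fetal libraries, as SOX9 was. SNORC was highest there, and CNMD was lowest in Fetal2. Among the neonatal libraries, COL2A1, ACAN and COL11A2 shared the order of SOX9, with Neonatal2 highest and Neonatal3 lowest. COL9A1, MATN1, CNMD and SNORC did not. All 7 measured cartilage genes overlapped between the groups and their summed level ranged from 20.2 to 40.2 FPKM in the fetal and from 23.9 to 32.8 FPKM in the neonatal libraries. How much of the SOX9 signal came from cartilage was not tested.

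CEBPA, which acts in alveolar type II cells and also in myeloid blood cells, varied most. Its values were 10.196, 2.99 and 4.72 FPKM in the fetal group and 5.72, 11.3 and 7.27 FPKM in the neonatal group. One fetal library, Fetal1, was nearly as high as the highest neonatal one, and Neonatal2 was 3.79 times Fetal2. The difference was 0.47 (standard error 0.40, limma adjusted p = 0.507), with a wide 95% interval from -0.47 to 1.42. It was 0.88 without Fetal1 and 0.14 without Fetal2, with adjusted p values of 0.219 and 0.882, and 0.23 without Neonatal2, with an adjusted p of 0.810. MARCO, a receptor of lung macrophages that was picked after its values were seen, also had its highest fetal value in Fetal1, at 299.9 FPKM against 98.3 and 161.4 FPKM in Fetal2 and Fetal3. In Neonatal1 to Neonatal3 MARCO stood at 226.5, 468.7 and 593.5 FPKM, so it was highest in Neonatal3, and CEBPA in Neonatal2. The other measured leukocyte genes, PTPRC, CD68, CSF1R, CD14 and ITGAM, were also highest in Fetal1 among the fetal libraries. Among the neonatal libraries CSF1R, CD14 and ITGAM were highest in Neonatal2, as CEBPA was, and PTPRC and CD68 in Neonatal3. Of the measured alveolar type II genes, SFTPA1, SFTPD, ABCA3, NAPSA and SLC34A2 also had their highest fetal value in Fetal1. SFTPB, SFTPC and LPCAT1 had it in Fetal3. Among the neonatal libraries SFTPD, ABCA3 and NAPSA were highest in Neonatal2, SFTPA1, SFTPB and SFTPC in Neonatal3, and SLC34A2 and LPCAT1 in Neonatal1. The 6 measured leukocyte genes, of which 3, or 50.0%, did not overlap between the groups, against 30.5% of all mRNAs, and 0 were past the threshold in limma (4 at an unadjusted p under 0.05, against 24.2% of all mRNAs), summed to between 123.2 and 352.7 FPKM in the fetal and between 286.4 and 699.6 FPKM in the neonatal libraries. The largest differences among them were those of CD14 and CD68, at 1.28 and 1.25, with limma adjusted p values of 0.120 and 0.0506. The part of leukocytes and of type II cells in the CEBPA signal was not tested.

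TBX4 stood at 15.1, 14.5 and 20.0 FPKM before birth and at 25.2, 25.7 and 30.0 FPKM after it. All 3 neonatal values were higher than all 3 fetal values, and the neonatal mean was 1.63 times the fetal mean. The difference was 0.68 (standard error 0.19, 95% interval from 0.24 to 1.13), but with an unadjusted p of 0.00790 the limma adjusted p was 0.0795, above the threshold. It kept its sign under all 13 alternatives, with values of 0.51 after median-of-ratios scaling, 0.45 after quantile normalization and between 0.60 and 0.82 with 1 library left out. The adjusted p lay between 0.0720 and 0.238 over these alternatives. Among 874 mRNAs of like level, within 0.25 of TBX4 on the log2 scale, 78.3% differed less between the groups than TBX4 did. For FOXA2, GATA6, SOX9, ETV5 and CEBPA these shares were 18.2%, 12.99%, 13.9%, 7.49% and 64.3%.

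The factors also differed in how far the piglets of a group spread. The SD within groups, pooled over both groups on the log2(FPKM + 1) scale, was 0.133 for GATA6, 0.161 for FOXA2, 0.171 for ETV5, 0.192 for TBX4, 0.272 for SOX9 and 0.620 for CEBPA. Among mRNAs of like level the median of this SD was between 0.259 and 0.362. GATA6 varied less than 91.0% of the mRNAs of its level, and CEBPA more than 92.2%. In the fetal group the coefficient of variation of CEBPA was 63.1%, against 13.8% for ETV5, 14.1% for GATA6 and 14.2% for FOXA2.

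**Figure D2:**
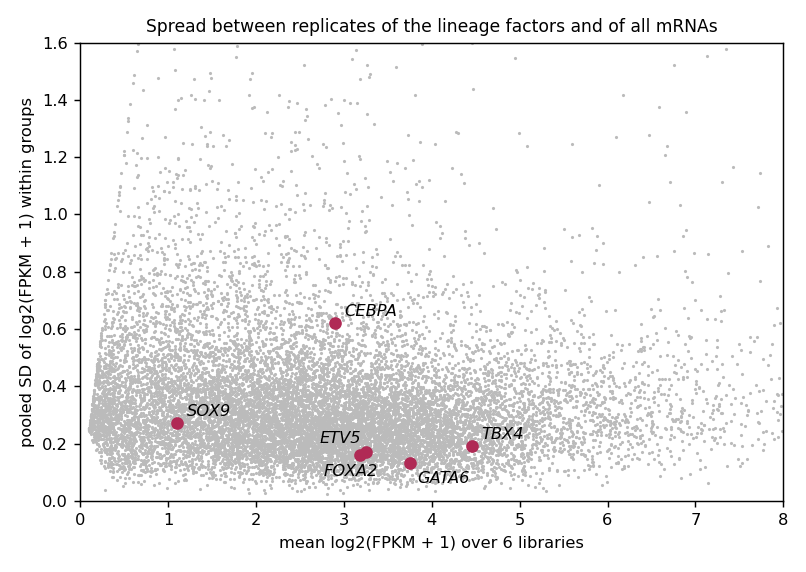
Pooled SD of log2(FPKM + 1) within groups (y axis) against the mean log2(FPKM + 1) over the 6 libraries (x axis). Grey points are all mRNAs within the axes drawn, and red points the 6 lineage factors. CEBPA, at 0.620, stands above most mRNAs of its level, and the other 5 factors, from 0.133 to 0.272, lie in the lower part of the cloud.

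To set the factors against the tissue layer in which they act, each was compared with reference genes of the same library. The epithelial reference was the mean log2(FPKM + 1) of EPCAM and CDH1, which hold epithelial cells together, and of the keratins KRT8 and KRT18. Relative to it, GATA6 stood at -2.00, -2.21 and -2.35 in the fetal libraries and at -2.46, -2.47 and -2.73 in the neonatal libraries. The groups of GATA6 did not overlap, with a difference of -0.37 (two-sided exact permutation test, p = 0.1, which is the lowest that 3 against 3 allows; 0.24 after Benjamini-Hochberg adjustment over 6 such comparisons). For FOXA2 the difference was -0.17, for SOX9 -0.36 and for ETV5 -0.23, each with overlapping groups (exact permutation test, two-sided p = 0.2; adjusted 0.24). With 1 library left out, FOXA2 ranged from -0.29 without Neonatal1 to -0.060 without Neonatal3, SOX9 from -0.58 without Neonatal2 to -0.11 without Neonatal3, and ETV5 from -0.31 to -0.15, the latter without Fetal3. CEBPA differed by 0.20 from its fetal level on this measure (exact permutation test, two-sided p = 0.5; adjusted 0.5). The reference itself was uneven, and its mean was higher after birth. CDH1 and KRT18 were higher in every neonatal than in every fetal library, at 96.1 ± 5.77 against 67.1 ± 9.54 FPKM for CDH1. EPCAM was lower in every neonatal library, at 29.4 ± 8.64 against 46.5 ± 1.94 FPKM (SD, n = 3 each). The differences were 0.52 for CDH1, 0.59 for KRT8, 0.68 for KRT18 and -0.69 for EPCAM. Without the reference, those of the factors were -0.09 for GATA6, 0.10 for FOXA2, -0.09 for SOX9 and 0.05 for ETV5. The rise of the reference is thus part of the negative values of GATA6 and SOX9 relative to it. For FOXA2 and ETV5, whose own differences were positive without further scaling, the rise exceeds the negative value. None of the 4 reference genes was past the threshold in limma (3 at an unadjusted p under 0.05, against 24.2% of all mRNAs).

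The mesenchymal reference was the mean of PDGFRB, a receptor of pericytes and fibroblasts, and of the collagen genes COL1A2 and COL3A1. These were the 3 measured of 6 listed genes. TBX4 stood at -2.68, -2.42 and -2.30 relative to it before birth and at -2.28, -2.32 and -2.24 after it. The groups overlapped, and the difference was 0.19, or 0.082 without Fetal1 (exact permutation test, two-sided p = 0.2; adjusted 0.24). COL1A2 itself had 83.4 ± 9.39 FPKM before birth and 139.1 ± 7.45 FPKM after it (SD, n = 3 each), a difference of 0.74 with a limma adjusted p of 0.0670. COL3A1 was also higher in every neonatal library (difference 0.51, limma adjusted p = 0.342), and PDGFRB overlapped (0.23, adjusted p = 0.485). The mean of this reference was thus also higher after birth. Of 5 smooth muscle genes, 3 were past the threshold and higher in the neonatal group, against 5.41% of all mRNAs. These were CNN1, TAGLN and ACTA2, with differences of 2.099, 1.75 and 1.74. ACTA2, the actin of smooth muscle and myofibroblasts, had 115.8 ± 29.3 FPKM before birth and 383.5 ± 50.2 FPKM after it (SD, n = 3 each; limma adjusted p = 0.0138). TAGLN lost its call without any of 5 libraries, Neonatal1 excepted, with an adjusted p of up to 0.137. ACTA2 lost it without Fetal1, Fetal2, Neonatal2 or Neonatal3 (up to 0.0682) and CNN1 without Neonatal2 or Neonatal3 (up to 0.0611). The other smooth muscle genes, MYH11 and DES, were not past the threshold, with differences of 0.74 and 0.12 and limma adjusted p values of 0.135 and 0.855, and DES overlapped between the groups. The part of contractile cells in the level of TBX4 was not tested.

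**Figure D3:**
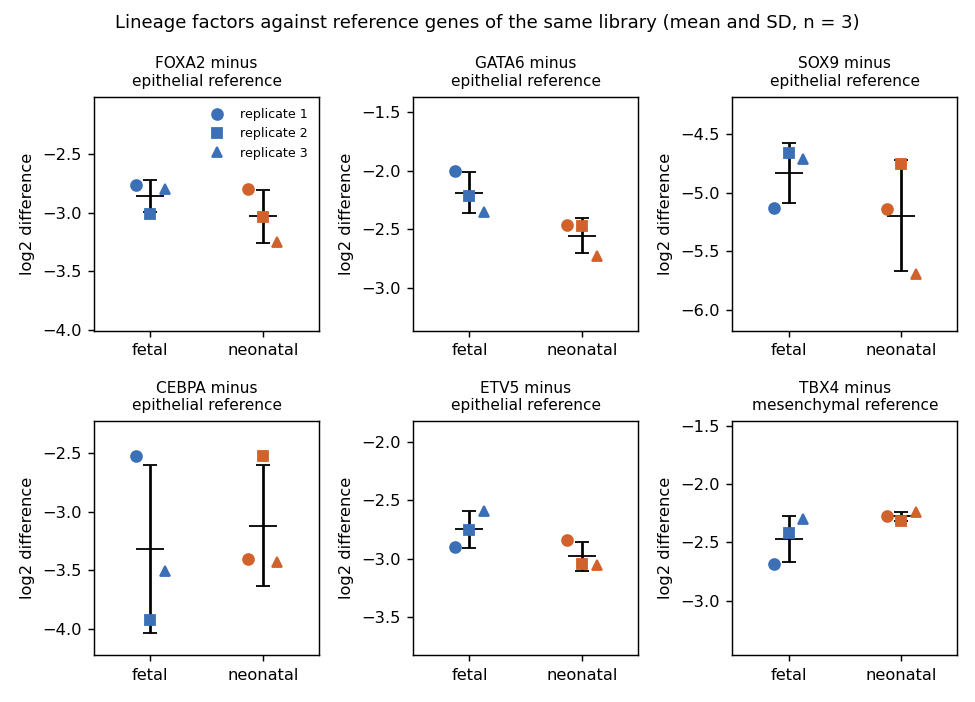
Difference in log2(FPKM + 1) between each lineage factor and the mean of the reference genes of the same library, for the fetal and neonatal libraries (points by replicate number, black bars mean and SD, n = 3 per group). Each panel spans 2 log2 units. The groups lie apart for GATA6, from -2.35 to -2.00 against -2.73 to -2.46, and overlap for the other factors. The means of the epithelial and of the mesenchymal reference were themselves higher in the neonatal group.

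Among the family relatives of the factors, 23 of 44 listed genes were measured. Over all mRNAs, 6.87% were past the threshold. Only SOX4, an HMG box factor of progenitor cells, was past the threshold, with 21.1 ± 3.03 FPKM before birth and 41.8 ± 4.58 FPKM after it (SD, n = 3 each), a difference of 0.96 (standard error 0.19, limma adjusted p = 0.0282). Its adjusted p was above the threshold after either scaling, at 0.0535 and 0.105, and without any 1 of the 6 libraries, at 0.0546 to 0.105. The groups did not overlap for 8 of the 23, or 34.8%, near the 30.5% of all mRNAs, and their median difference was -0.02.

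TBX5, the partner of TBX4 in the lung mesenchyme, stood at 13.9, 13.1 and 17.9 FPKM in the fetal libraries and at 21.9, 19.9 and 14.9 FPKM in the neonatal libraries, with overlap (difference 0.31, standard error 0.21, limma adjusted p = 0.406). TBX2 and TBX3, T-box repressors that keep the embryonic lung mesenchyme growing, were the most abundant of the 4 measured T-box genes. TBX2 was higher in every neonatal library, at 73.8, 82.0 and 81.3 FPKM against 61.1, 60.0 and 70.9 FPKM (difference 0.30, limma adjusted p = 0.342). TBX3 was lower in every neonatal library, at 29.1, 31.2 and 37.2 FPKM against 43.9, 39.8 and 48.9 FPKM, with a difference of -0.43 (limma adjusted p = 0.200). The mean level of TBX4 was thus 0.374 times that of TBX3 in the fetal group and 0.829 times in the neonatal group. Within a library, TBX4 minus TBX3 was between -1.48 and -1.25 before birth and between -0.30 and -0.20 after it, a difference of 1.12. This and 7 other comparisons of a factor with a relative were chosen after the values had been seen. Of the 8, all but ETV5 minus ETV1 and CEBPA minus CEBPD were without overlap. Each of those without overlap had p = 0.1 in a two-sided exact permutation test, the lowest possible, or 0.133 after Benjamini-Hochberg adjustment over the 8. TBX4 minus TBX5 differed by 0.37, and TBX4 minus TBX2 by 0.38, also without overlap. Without Neonatal3 the value for TBX5 was 0.14.

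ETV4, which FGF signals induce together with ETV5 in the growing tips, had 0.352, 0.468 and 0.799 FPKM in the fetal libraries and 1.26, 3.15 and 4.06 FPKM in the neonatal libraries. All neonatal values lay above all fetal values, with a difference of 1.24 (standard error 0.33, limma adjusted p = 0.0670), and without Neonatal1 the adjusted p was 0.0285. Without any other library it was between 0.124 and 0.218. The mean of ETV5 was 15.6 times that of ETV4 before birth and 3.10 times after it. Within a library, ETV5 minus ETV4 differed by -1.20 between the groups, which did not overlap. ETV5 minus ETV1 differed by -0.05, with overlap (exact permutation test, two-sided p = 0.8; adjusted 0.8).

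GATA3 was low and overlapped between the groups, at 1.09 ± 0.381 FPKM before birth and 0.992 ± 0.263 FPKM after it (SD, n = 3 each; difference -0.06, limma adjusted p = 0.899). GATA5 had 5.16 ± 0.511 FPKM before birth and 8.82 ± 2.05 FPKM after it (SD, n = 3 each; limma adjusted p = 0.118), so that GATA6 was 2.51 times GATA5 in the fetal mean and 1.37 times in the neonatal mean. CEBPD, a leucine zipper factor that glucocorticoids induce, was far more abundant than CEBPA, at 207.9, 121.3 and 148.1 FPKM in the fetal and 77.1, 115.5 and 165.9 FPKM in the neonatal libraries. It overlapped between the groups (difference -0.44, limma adjusted p = 0.461; -0.89 with an adjusted p of 0.0449 after quantile normalization), and its lowest fetal library, Fetal2, was also that of CEBPA. Within a library, CEBPA minus CEBPD differed by 0.92, with overlapping groups (exact permutation test, two-sided p = 0.2; adjusted 0.229). SOX9 minus SOX4 differed by -1.05, without overlap.

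**Figure D4:**
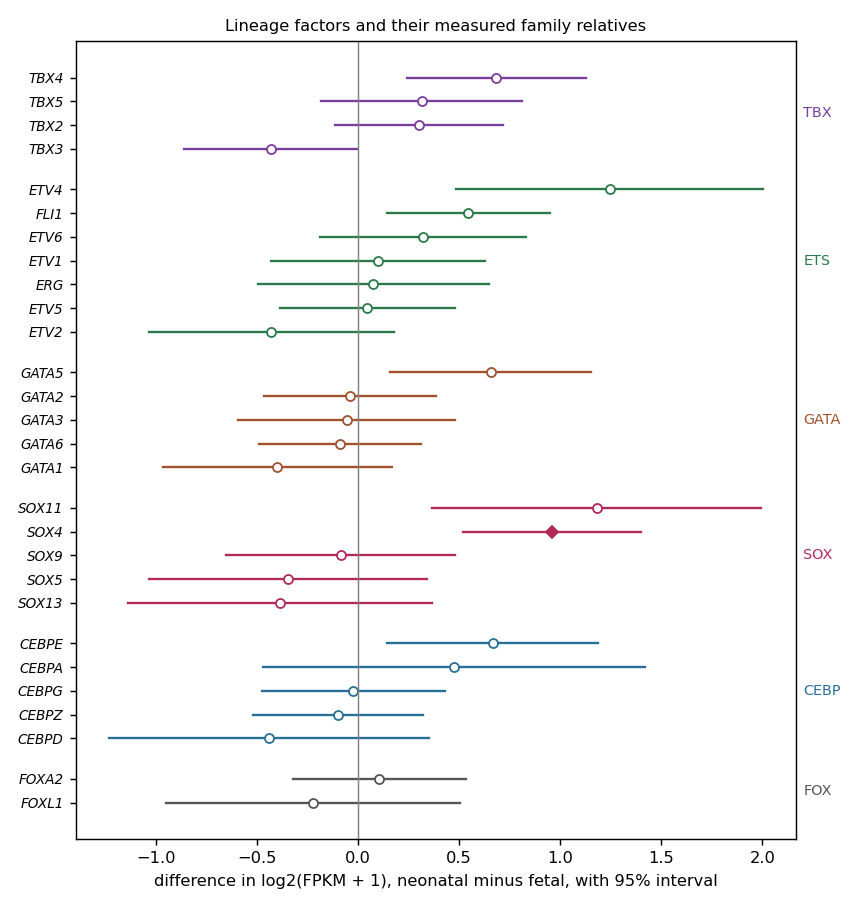
Difference in log2(FPKM + 1), neonatal minus fetal, for the 6 lineage factors and measured relatives of the same families (NKX2-8 not drawn), with 95% intervals from limma (x axis). Filled diamonds mark an adjusted p of 0.05 or less and open circles a higher one. SOX4, at 0.96, is the only filled symbol, TBX4 stands at 0.68 and TBX3 at -0.43.

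Of 65 further transcription factors of lung development on a list, 39 were measured and 1 was past the threshold, the cell cycle factor FOXM1, against 6.87% of all mRNAs. FOXM1 had 0.237, 0.182 and 0.154 FPKM before birth and 2.60, 2.099 and 2.88 FPKM after it (difference 1.56, standard error 0.20, limma adjusted p = 0.00718) and stayed past the threshold under all 13 alternatives. The median difference of the 39 was 0.25, and the groups did not overlap for 12 of them, or 30.8%, close to the 30.5% of all mRNAs. Of 3 factors of airway or alveolar epithelium singled out after their values were seen, the groups overlapped for each. GRHL2, a grainyhead factor of epithelial junctions, had 6.30 ± 0.545 and 5.87 ± 0.451 FPKM, and ELF3, an ETS factor of epithelia, had 30.7 ± 5.39 and 29.0 ± 6.35 FPKM (SD, n = 3 each). FOXJ1, which directs the growth of motile cilia, had 53.2 ± 13.95 FPKM before birth and 41.8 ± 3.52 FPKM after it (SD, n = 3 each; limma adjusted p = 0.449).

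The genes that FOXA2, GATA6 and CEBPA are known to drive were read from a list of 12 surfactant and secretory genes, of which 11 were measured. None was past the threshold in limma, against 6.87% of all mRNAs (1 at an unadjusted p under 0.05, against 24.2%), and their median difference was 0.19. The largest differences in size were those of club cell secretoglobins: SCGB1A1 had 138.5, 119.4 and 99.8 FPKM in the fetal and 62.2, 0.213 and 62.0 FPKM in the neonatal libraries (difference -2.82, limma adjusted p = 0.265), and SCGB3A2 had 2136, 6558 and 6790 FPKM and then 1406, 899.5 and 2844 FPKM (difference -1.57, adjusted p = 0.213). Neonatal2 was the lowest library for both. Without Neonatal2 the difference of SCGB1A1 was -0.92. The groups did not overlap for 4 of the 11, or 36.4%, against 30.5% of all mRNAs: SCGB1A1 was lower in every neonatal library, and SFTPA1, SFTPB and SFTPC, which code for surfactant proteins, were higher, with differences of 0.97, 0.54 and 0.80 and limma adjusted p values of 0.151, 0.320 and 0.429. The groups overlapped for the other 7, among them SFTPD (0.74), ABCA3 (0.27), SLC34A2 (0.07) and NAPSA (-0.24). Apart from the secretoglobins, these genes are named to account for the list, after their values were seen.

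The signals around ETV5 and SOX9 were read from 18 genes of the FGF pathway, of which 13 were measured. Past the threshold in limma were 0 of them, and 1 was at an unadjusted p under 0.05, against 6.87% and 24.2% of all mRNAs. The groups did not overlap for 3 of the 13, or 23.1%, against 30.5% of all mRNAs. After ETV4, the largest difference was that of SPRY2, a feedback inhibitor of FGF signaling, with 10.0 ± 2.39 and 6.32 ± 3.34 FPKM (SD, n = 3 each; difference -0.67, limma adjusted p = 0.291). FGF10, the mesenchymal ligand of distal growth, had 6.15, 3.85 and 3.98 FPKM in the fetal and 3.32, 3.62 and 2.73 FPKM in the neonatal libraries, without overlap (difference -0.40, limma adjusted p = 0.310), a gene singled out after its values were seen. FGFR2, its epithelial receptor, also singled out so, overlapped at 29.8 ± 7.08 and 27.0 ± 7.16 FPKM (SD, n = 3 each). FGFR1, another FGF receptor singled out so, was higher in every neonatal library. It had 23.9 ± 1.80 and 31.4 ± 3.16 FPKM (SD, n = 3 each; difference 0.38, limma adjusted p = 0.223). Of 11 hedgehog genes, which carry a signal from epithelium to mesenchyme, 9 were measured and 0 were past the threshold in limma (2 at an unadjusted p under 0.05, against 24.2% of all mRNAs). SMO, the transducer of the signal, had 8.38 ± 0.556 and 15.3 ± 2.76 FPKM (SD, n = 3 each; difference 0.79, limma adjusted p = 0.0521, 0.0393 without Neonatal1 and up to 0.185 without another library), and GLI1, a transcription factor and target of the pathway, had 0.595 ± 0.330 and 1.33 ± 0.0984 FPKM (difference 0.57, adjusted p = 0.174). Both were higher in every neonatal than in every fetal library. The groups did not overlap for these 2 of the 9, or 22.2%, against 30.5% of all mRNAs. PTCH1 and HHIP of the same list, named after their values were seen, overlapped, with differences of -0.22 and 0.08 (limma adjusted p = 0.758 and 0.865).

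**Figure D5:**
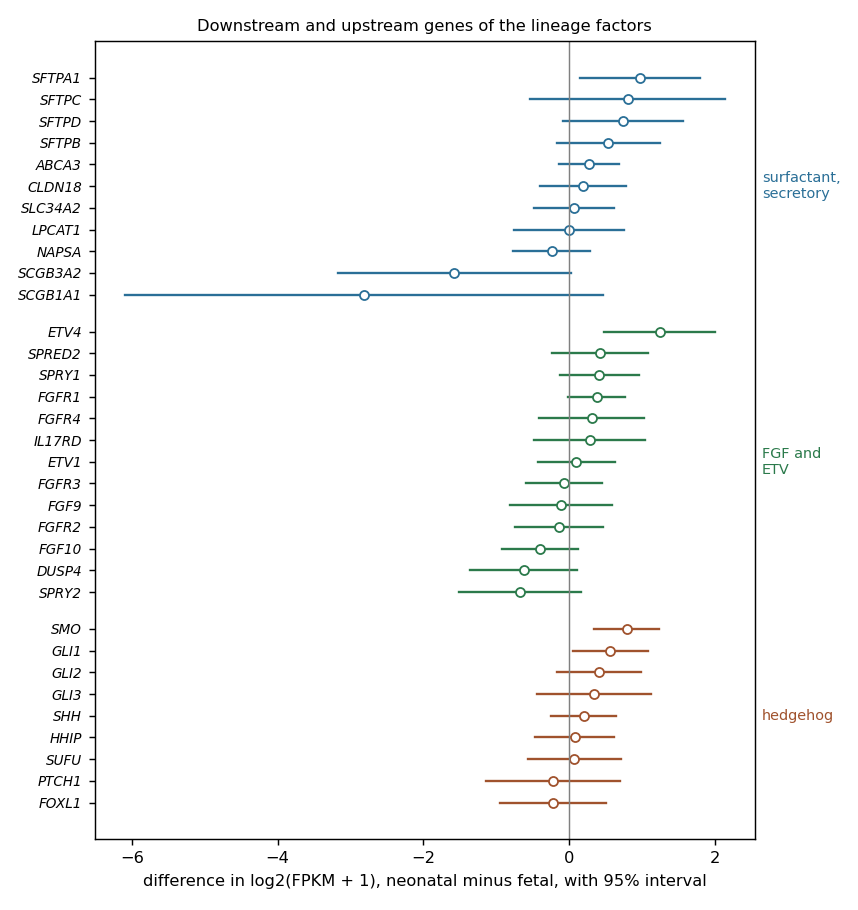
Difference in log2(FPKM + 1), neonatal minus fetal, with 95% intervals from limma (x axis), for the measured surfactant and secretory genes, FGF pathway genes and hedgehog genes. Open circles mark an adjusted p above 0.05, which holds for all genes drawn. The values run from -2.82 for SCGB1A1 to 1.24 for ETV4.

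Markers of the other cell types of the lung gave the surroundings of these values. Of the alveolar type I, club, ciliated and basal markers, 4 of 7, 3 of 3, 1 of 6 and 2 of 4 were measured, so that the ciliated and basal cells rest on few genes. None of these, and none of the 8 measured alveolar type II, 4 endothelial and 2 erythroid markers, was past the threshold in limma, where 0, 0, 0, 0, 1, 2 and 0 of them had an unadjusted p under 0.05. Over all mRNAs these shares were 6.87% and 24.2%. The median differences were 0.40 for the alveolar type II, 0.21 for the alveolar type I, -1.57 for the club, -0.31 for the ciliated, 0.05 for the basal, -0.18 for the endothelial and -0.62 for the erythroid markers. CLDN5, of endothelial junctions, differed by 1.197 with a limma adjusted p of 0.0585, which was 0.0335 without Neonatal1 and up to 0.203 without another library. The other endothelial markers differed by -0.48 (TEK), -0.40 (KDR) and 0.05 (PECAM1), with limma adjusted p values of 0.246, 0.195 and 0.902. KDR was lower in every neonatal than in every fetal library. TP63, the defining factor of basal cells, was at or below 0.679 FPKM in all libraries. The summed level of the erythroid genes ranged from 1221 to 2667 FPKM in the fetal and from 886.3 to 1454 FPKM in the neonatal libraries. That of the endothelial genes ranged from 378.8 to 475.8 FPKM and from 558.9 to 809.0 FPKM. Of these genes, CLDN5 alone was higher in every neonatal library, with a mean of 229.3 FPKM before birth and 536.8 FPKM after it. The sum of the smooth muscle genes ranged from 347.6 to 571.8 FPKM and from 1049 to 1712 FPKM. The part of these cell types in the levels of the lineage factors was not tested.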

How the data were processed

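Total RNA of lung tissue was sequenced by the authors from strand-specific Ribo-Zero libraries. Quality-filtered reads were mapped to Sscrofa10.2 with TopHat 2.1.0, and the deposited FPKM were computed by the authors with Cufflinks 2.2.1 and kept where FPKM exceeded 0.5 in at least 1 sample, which held for all 14579 mRNAs. No read counts were used here, so no counting error was attached to a value. The 6 value columns were matched to samples by name. Symbols came from a reference table for 9478 identifiers and from a supplementary table of the study, of which 1998 genes were held, for 362 more. Cuffdiff needs reads, and limma 3.58.1 was used in R 4.3.3, with a trend of the variance, on log2(FPKM + 1) in its place, adjusted over all mRNAs. It was tested on simulated data, where the smallest change tried was larger than the differences of the factors and was not recovered. Intervals are 95% intervals from limma. Within-library differences were tested by exact permutation in Python 3.11.15 with scipy 1.17.1, adjusted within their family.

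The factors and the lists were chosen with earlier results of these data known. By rule, the text names every factor, the members of the relatives and of the other lung factors past the threshold, the closest relatives (FOXA3, FOXF2, TBX5, ETV4, CEBPB, CEBPD, SOX17 and GATA3, of which TBX5, ETV4, CEBPD and GATA3 were measured), and of other lists up to 4 genes past the threshold or otherwise the 2 with the largest difference. Genes outside this rule (the relatives paired with a factor, further surfactant, cartilage and leukocyte genes, MARCO, KDR, PECAM1, FGF10, FGFR1, FGFR2, PTCH1, HHIP, GRHL2, ELF3, FOXJ1, MYH11, DES and TP63) were chosen after their values were seen. Genes of like pattern were to be named for NKX2-1 and for factors past the threshold, and none qualified. The planned ratios with NKX2-1, FOXA1, SOX2 or FOXF1 were not computed. Alternatives were pseudocounts of 0.5 and 0.1, FPKM above 1 in at least 3 libraries, quantile normalization, median-of-ratios scaling, dropping the variance trend, a block for the replicate number, and leaving out each library in turn. The lncRNA table was not used.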

Additional observations from a re-analysis of the deposited data

How the results depend on the processing

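No lineage factor was past the threshold under any of the 13 alternatives. The difference of FOXA2 turned to -0.053 after median-of-ratios scaling and -0.050 after quantile normalization, and that of ETV5 to -0.11 after each. The median over all mRNAs moved in the same direction, from 0.13 to -0.01 and -0.04. Summed FPKM was between 339491 and 471220 in the fetal and between 491548 and 777982 in the neonatal libraries. Why these sums differed was not tested. With 1 library left out, FOXA2 ranged from -0.0050 to 0.17, GATA6 from -0.15 to 0.015, SOX9 from -0.25 to 0.051 and ETV5 from -0.028 to 0.14. The sign turned without Fetal2 for FOXA2, Fetal1 for GATA6, Neonatal3 for SOX9, and Fetal1 or Neonatal3 for ETV5. Of all mRNAs, 1001 were past the threshold, between 196 and 944 with 1 library left out. Of the listed genes other than the 6 factors, 5 were past it, against 9 with the filter of FPKM above 1 in at least 3 libraries, where fewer genes are tested, 9 after quantile normalization, and between 1 and 8 with 1 library left out. Relative to the epithelial reference, CEBPA ranged from -0.10 to 0.60 with 1 library left out, turning negative without Fetal2 or Neonatal2. GATA3 ranged from -0.22 to 0.030, with a positive value without Fetal1, Fetal2 or Neonatal2 (0.016 and 0.015 for the last 2), and ETV5 minus ETV1 from -0.18 to 0.11, positive without Fetal3 or Neonatal3 (0.078). The neonatal mean was the higher one in 78.8% of the mRNAs past the threshold, in 66.0% after median-of-ratios scaling and in 57.9% after quantile normalization. The order of the levels was the same under both scalings. With the replicate number as a block, 401 mRNAs and 2 of the listed genes (CNN1 and FOXM1) were past the threshold, and the adjusted p of TBX4 was 0.166. The numbers do not pair the animals, which came from different sows, and the correlation of deviations of same-numbered libraries was between -0.041 and 0.00047. Without read counts, the depth behind SOX9 and ETV4 at about 1 FPKM is unknown.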
